A study of Canis lupus familiaris with 6 samples.

Results

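The aminoacyl-tRNA synthetases are the enzymes that join each amino acid to its transfer RNA. They were taken from the expression matrix by symbol, 36 genes of 20500 rows, of which 20 encode cytosolic enzymes (suffix 1, FARSA, FARSB and TARS3) and 16 mitochondrial ones (suffix 2). Each symbol matched a single row. The cells were HU-HSA-2, a line derived from hemangiosarcoma of the dog, a cancer with features of vascular endothelium. The compound, (R)-GNE-140, inhibits lactate dehydrogenase. It was given in 3 libraries, and 3 others are controls. Per the labels' protocols cells were kept with the compound or DMSO for 72 hours in DMEM with fetal bovine serum, a medium that supplies amino acids. The dose is not given in the sources used here, and a single line was studied.

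A synthetase activates its amino acid with ATP and transfers it to the matching tRNA, and the charged tRNA is then carried to the ribosome by an elongation factor. The enzymes fall into class I and class II by the fold of the catalytic domain. Mammalian cells keep one set for cytosolic and another for mitochondrial translation, both encoded in the nucleus, and several cytosolic enzymes sit together in the multi-synthetase complex. When amino acids run short, uncharged tRNA activates the kinase GCN2, which leads to translation of the transcription factor ATF4. In human and mouse cells many cytosolic synthetase genes are ATF4 targets, whereas the mitochondrial ones are mostly not.

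Values are TPM, a transcript abundance on a fixed total per library. They are scaled for transcript length and can be compared between genes. Between 13379 and 13861 genes were above 0 in a library. TPM keep no read depth, so depth is unknown and precision is judged from the spread between libraries. Of 16 endothelial markers, 15 had a mean of at least 1 TPM, and 0 of those 15 rose or fell, although the groups lay apart in 7 of 15 (46.7%, 6 lower and 1 higher), against 23.1% of all genes, and 6 of 15 (40%) had an unadjusted limma p under 0.05, against 17.9%. The marker below that mean was VWF, with means of 0.0867 TPM in treated and 0.0833 TPM in control cells. The sum of all 16 was 1618 to 1734 TPM in (R)-GNE-140 libraries and 1839 to 2038 TPM in controls. The 9 leukocyte markers (2 with a mean of at least 1 TPM) summed to 8.11 to 10.1 TPM in (R)-GNE-140 libraries and 7.58 to 8.44 TPM in controls, and CD3E was listed at 0. Of those 2, 0 rose or fell, and the groups lay apart in 1 (50%, against 23.1% of all genes). This was CD14, at 5.92 TPM in treated and 4.5 TPM in control cells, while CD68 overlapped. The 9 fibroblast and mural markers (3 with such a mean) summed to 7.80 to 10.7 TPM after the compound and 5.60 to 7.02 TPM in controls, with COL3A1 and RGS5 listed at 0. Of those 3, 0 rose or fell, and the groups lay apart in 2 (66.7%), both higher in treated cells. COL1A1 had 2.27 TPM in treated and 1.29 TPM in control cells, and PDGFRA had 3.35 and 2.44 TPM, while ACTA2 overlapped. The 5 epithelial markers with a row summed to at most 0.26 TPM in either group, with CDH1 listed at 0. The part of these marker differences in the results below was not tested.

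No synthetase transcript passed the test after (R)-GNE-140. Of the 36 members, 0 rose and 0 fell in limma on log2(TPM + 1) with Benjamini-Hochberg adjustment at 0.05 over the 10874 genes with a mean of at least 1 TPM. All 36 were among the genes tested. In the same fit 329 genes changed, which is 3.03% of those tested (1.31% rose and 1.72% fell), so at that share about 1 of 36 members would be called and a count of 0 lies near the background. An unadjusted limma p under 0.05 was found for 7 members (19.4%), against 17.9% of all genes. All 7 had lower means in treated cells, where 9.16% of all genes had such a p with a lower mean and 8.75% with a higher one. The same 7 were the members whose 3 treated values all lay below the 3 control values, and no member had them all above. Groups lay apart in 23.1% of all genes, 11.8% lower and 11.2% higher.

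By median size, the differences were smaller than those of all genes in the cytosolic set and similar to them in the mitochondrial set. On the log2(TPM + 1) scale they ran from -0.31 to 0.11 among cytosolic members and from -0.37 to 0.11 among mitochondrial ones. The median was -0.0201 for the cytosolic and -0.0342 for the mitochondrial set, beside 0.00403 over all genes tested. The median absolute difference was 0.0576 over cytosolic and 0.0841 over mitochondrial members (0.0609 over all 36), beside 0.0866 over all genes. For 27 members the whole 95% interval lay within 0.3 of 0, which held for 54.1% of all genes. It lay within 0.3 for 18 of the 20 cytosolic (90%) and 9 of the 16 mitochondrial members (56.2%). Their median standard errors were 0.0552 and 0.0893, beside 0.0801 over all genes. The median level of the 36 members was also higher than that of all genes, at 55.9 against 21.6 TPM. A wider band of 0.5, which held the intervals of 84.8% of all genes, held those of all members but TARS3 and MARS2. By catalytic class, 5 of 18 class I members (27.8%) and 2 of 17 class II members (11.8%) had an unadjusted limma p under 0.05, against 17.9% of all genes. Their medians were -0.0335 and -0.0278, and EPRS1 belongs to both classes. The classes were not tested against each other. In bulk RNA of this kind, a smaller share of expressing cells and less transcript per cell cannot be told apart.

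**Figure D1:**
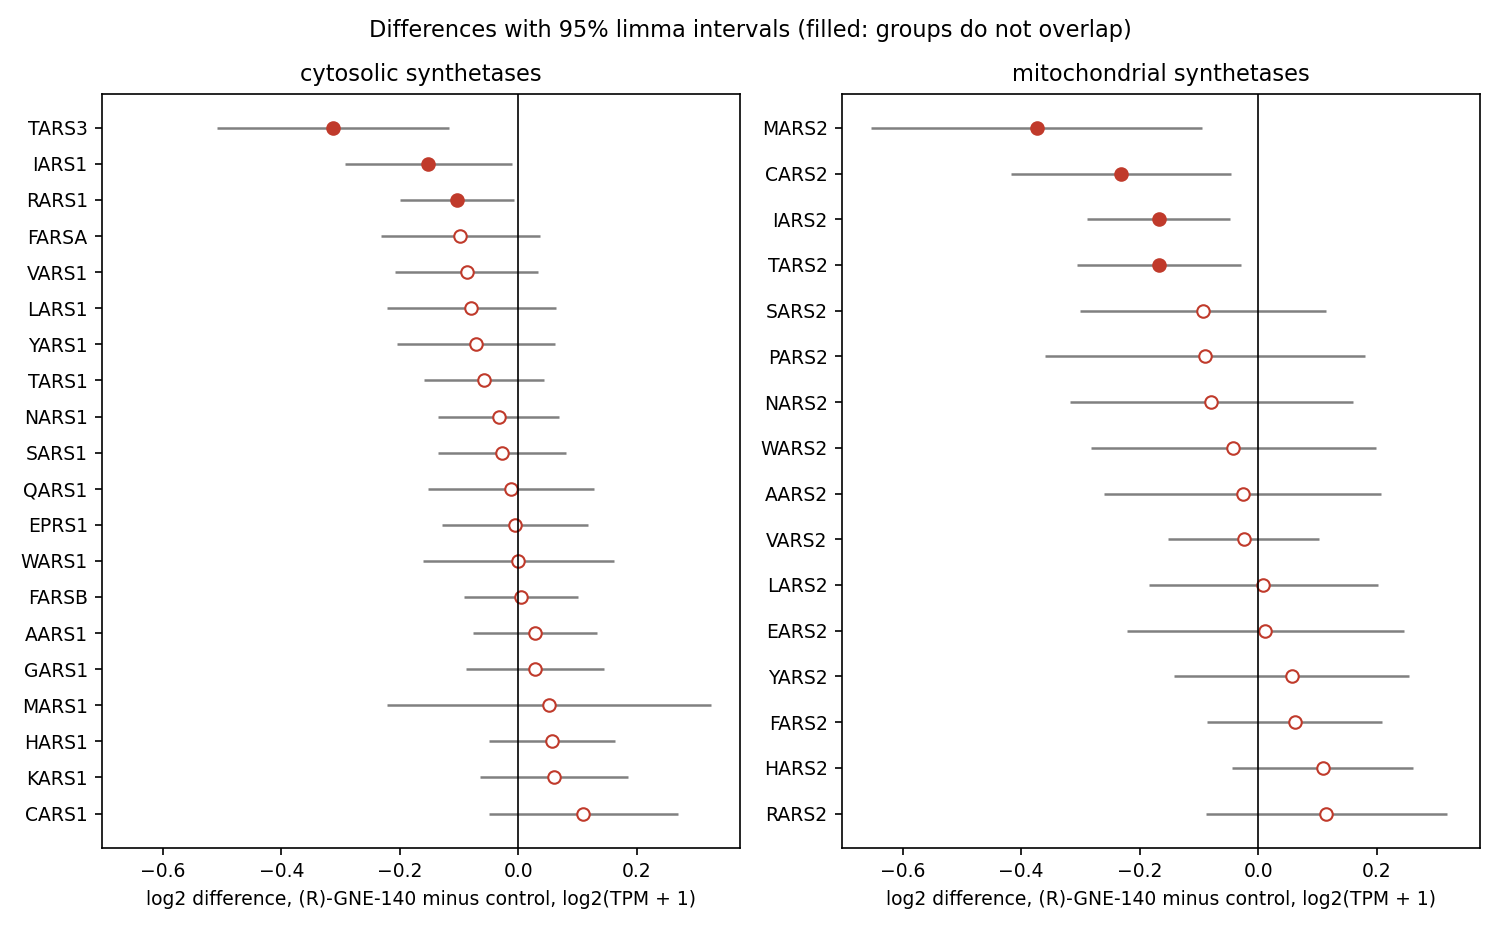
Log2 difference of each synthetase, (R)-GNE-140 minus control, on log2(TPM + 1), with 95% limma intervals; cytosolic enzymes are on the left and mitochondrial ones on the right, and filled points mark members whose treated and control values do not overlap. The 7 filled points all lie below 0, and the lowest are TARS3 at -0.31 and MARS2 at -0.37.

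Summed over members, treated and control libraries overlapped in both compartments. The 20 cytosolic genes summed to 2612, 2526 and 2631 TPM in (R)-GNE-140 replicates 1, 2 and 3, and to 2602, 2558 and 2699 TPM in control replicates 1, 2 and 3. The means were 2590 ± 55.8 TPM after the compound and 2620 ± 72.2 TPM in controls (SD, n = 3 each), a difference of -1.14%, which is smaller than either SD. These genes took 0.253% to 0.263% of all TPM in treated and 0.256% to 0.270% in control libraries. The 16 mitochondrial genes summed to 359, 329 and 342 TPM in treated libraries and 363, 349 and 360 TPM in controls. Their means were 344 ± 15 TPM after the compound and 357 ± 7.19 TPM in controls (SD, n = 3 each), a difference of -3.82%, and the groups overlapped. The sum depends mostly on the abundant members, and no test was made on it.

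**Figure D2:**
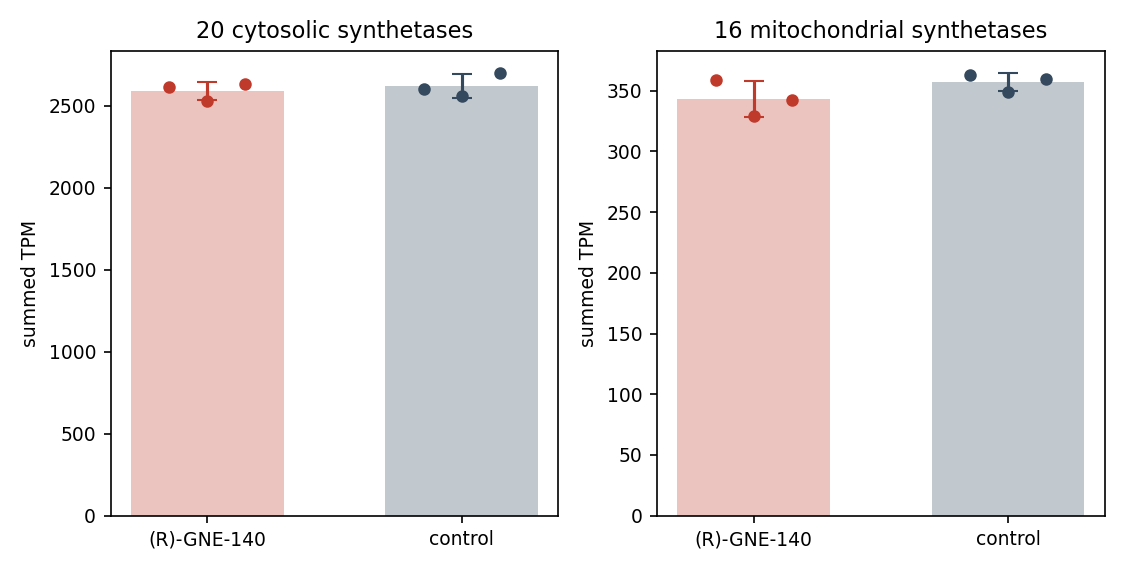
Summed TPM of the 20 cytosolic (left) and 16 mitochondrial (right) synthetases; points are libraries, bars are group means from 0 and error bars are SD (n = 3 each). Treated and control libraries overlap in both panels, with means of 2590 (treated) and 2620 TPM (control) on the left and 344 (treated) and 357 TPM (control) on the right.

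Levels differed far more between enzymes than between groups. KARS1 (lysine) was the most abundant, at 400 ± 19.1 TPM in treated and 384 ± 22.7 TPM in control cells. FARSB, RARS1 and NARS1 (phenylalanine, arginine and asparagine) followed, with means over all 6 libraries of 219, 211 and 209 TPM, and their ranges overlapped in control libraries. The lowest cytosolic members were CARS1 (cysteine) at 42.9 TPM and TARS3 at 17.0 TPM. Among mitochondrial members VARS2 (valine) led at 69.8 TPM, then TARS2 (threonine) at 52.8 and IARS2 (isoleucine) at 41.6 TPM. The lowest were SARS2 (serine) at 8.35 TPM and PARS2 (proline) at 4.22 TPM. The median level was 103 TPM over cytosolic and 15.2 TPM over mitochondrial members.

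**Figure D3:**
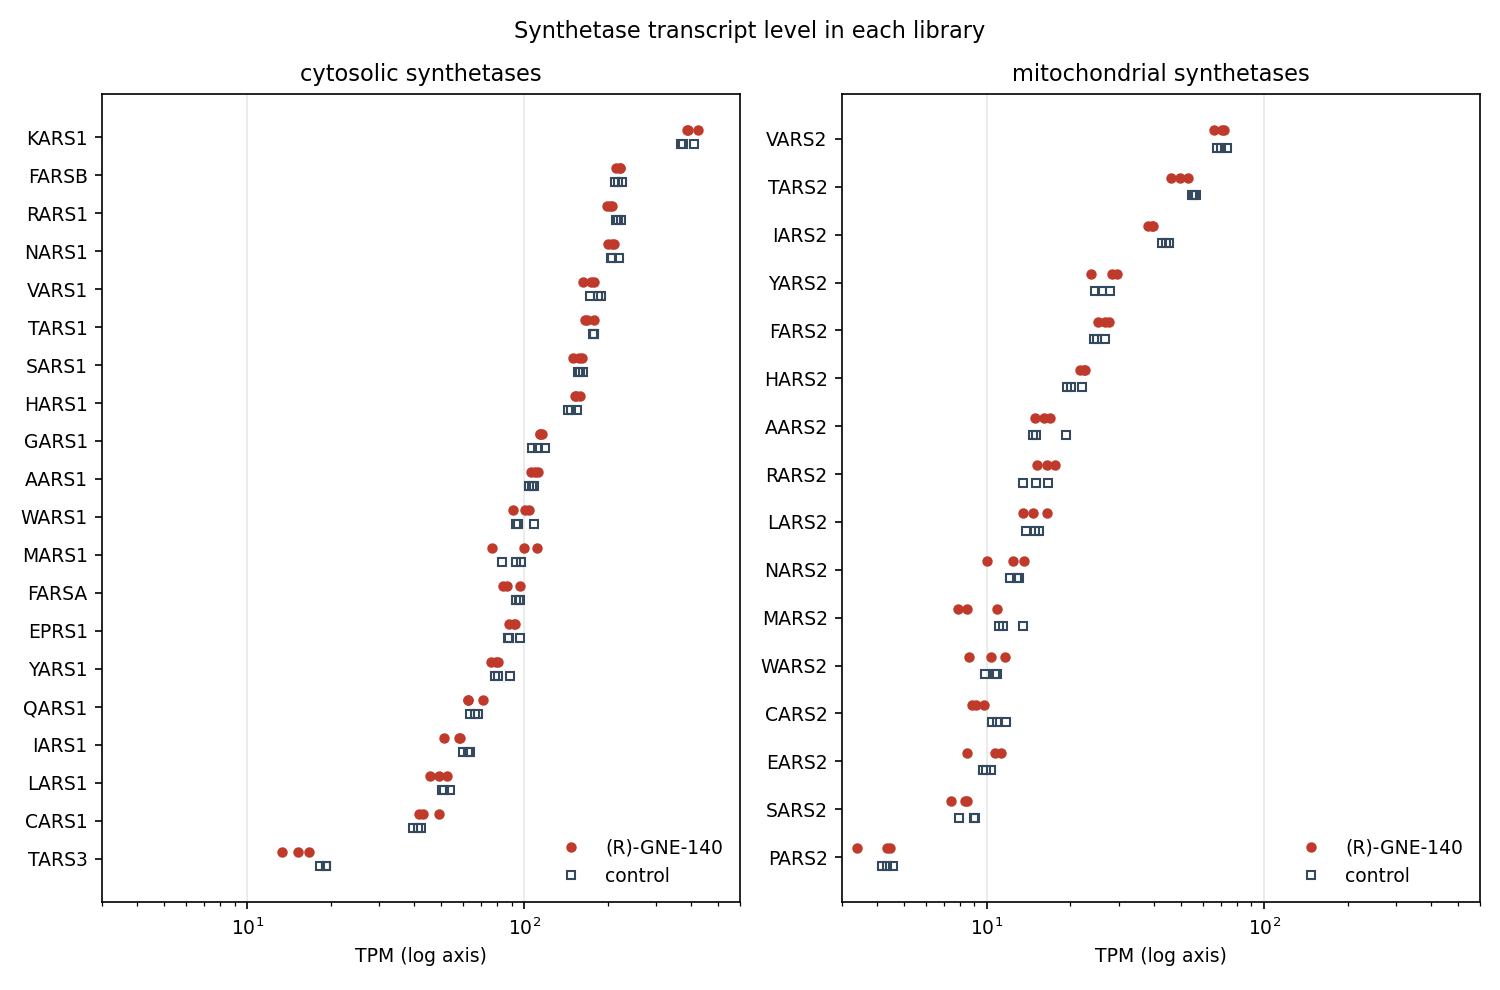
TPM of each synthetase in each library on a log axis, cytosolic on the left and mitochondrial on the right, with (R)-GNE-140 libraries as filled circles just above the control libraries as open squares. Genes are ordered by mean level, from KARS1 at 392 TPM and VARS2 at 69.8 TPM down to TARS3 at 17.0 TPM and PARS2 at 4.22 TPM.

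The multi-synthetase complex joins enzymes for several amino acids, and 7 of its enzymes are among the members. Of these, 0 rose and 0 fell, and their differences ran from -0.15 to 0.06 around a median of -0.0124. IARS1 (ENSCAFG00845000092), which charges isoleucine, had 58.5, 51.4 and 57.9 TPM in (R)-GNE-140 cells, against 62.6, 60.3 and 63.6 TPM in controls. All 3 treated values lay below all 3 control values, yet the log2 difference of -0.15 (95% interval -0.29 to -0.01) missed the threshold (limma adjusted p = 0.239). RARS1 (ENSCAFG00845003171) had 199, 204 and 208 TPM after the compound, against 218, 214 and 224 TPM in controls. These groups did not overlap either, and the log2 difference was -0.10 (limma adjusted p = 0.242). EPRS1 (ENSCAFG00845028538) carries both the glutamate and the proline activity of the cytosol in a single chain. It had 92.2, 87.9 and 91.7 TPM in treated and 87.7, 88.4 and 96.9 TPM in control cells, with a difference of -0.01 (95% interval -0.13 to 0.12). The treated values of EPRS1 lay inside the control range, and the sign of its difference turned under 4 of 15 alternative settings.

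KARS1 (ENSCAFG00845023307) serves both compartments in human and mouse from a single gene, by alternative splicing, so its level belongs to both sets. It had 422, 388 and 391 TPM in (R)-GNE-140 libraries and 373, 369 and 410 TPM in controls, overlapping groups with a difference of 0.06 (95% interval -0.06 to 0.18). QARS1 (ENSCAFG00845029059), the glutaminyl enzyme, had 71.0, 62.7 and 62.8 TPM in treated and 66.5, 63.7 and 67.8 TPM in control cells. Its difference was -0.01 (95% interval -0.15 to 0.13). LARS1, which charges leucine and is also described as a leucine sensor for mTORC1 in human cells, had 49.1, 45.8 and 52.4 TPM after the compound and 53.9, 50.4 and 51.4 TPM in controls, a difference of -0.08. MARS1, the cytosolic methionyl enzyme, had 76.3, 99.8 and 111 TPM in treated and 83.3, 97.4 and 93.5 TPM in control cells. Its coefficient of variation was 18.5% in treated libraries, the highest of the cytosolic members there, and 7.98% in control libraries, and its interval of -0.22 to 0.33 was the widest of the complex. Transcripts of the complex were not in equal amounts. KARS1 was at 8.18 ± 0.627 times the TPM of LARS1 in treated and 7.41 ± 0.531 times in control libraries (SD, n = 3 each).

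Outside the complex, 13 cytosolic members had 0 calls and differences from -0.31 to 0.11. The largest cytosolic difference was that of the threonyl enzyme TARS3. TARS3 (ENSCAFG00845000546), a paralog of TARS1, had 16.7, 13.3 and 15.3 TPM in (R)-GNE-140 cells, against 18.3, 19.3 and 19.2 TPM in controls. The groups lay apart, with means of 15.1 ± 1.71 TPM in treated and 18.9 ± 0.576 TPM in control cells (SD, n = 3 each). The log2 difference was -0.31 (SE 0.09, 95% interval -0.51 to -0.12), with the smallest p of the 36 members, and it missed the threshold (limma adjusted p = 0.0933, and 0.057 to 0.210 over the alternative settings). TARS1 (ENSCAFG00845001605), the main threonyl enzyme, had 166, 169 and 178 TPM in treated and 178, 177 and 179 TPM in control cells, a difference of -0.06. The values of both paralogs are uncertain, since near copies can share reads and no source used here says how these were divided. TARS1 was at 9.97 to 12.8 times the TPM of TARS3 in treated and 9.17 to 9.77 times in control libraries.

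Phenylalanyl-tRNA synthetase of the cytosol is built of FARSA and FARSB chains. FARSA had 86.9, 83.8 and 96.4 TPM in treated cells, against 96.5, 95.4 and 93.5 TPM in controls, a difference of -0.10 (95% interval -0.23 to 0.04). FARSB had 222, 215 and 221 TPM in treated and 218, 213 and 225 TPM in control cells, a difference of 0.00 (95% interval -0.09 to 0.10). Although the chains pair in the protein, FARSB was at 2.47 ± 0.154 times the TPM of FARSA after the compound and 2.30 ± 0.09 times in controls (SD, n = 3 each). VARS1, the valyl enzyme, had 178, 163 and 174 TPM in treated and 185, 173 and 189 TPM in control cells, with overlap and a difference of -0.09. CARS1, for cysteine, had 49.2, 41.7 and 43.0 TPM in treated and 39.7, 41.4 and 42.5 TPM in control cells. Its difference was 0.11 (95% interval -0.05 to 0.27), and the groups overlapped. Without (R)-GNE-140 replicate 1, the library with 49.2 TPM, it was 0.0391.

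GARS1 (ENSCAFG00845019772), for glycine, is the other gene known to serve both compartments in human and mouse. It had 114, 114 and 116 TPM in (R)-GNE-140 libraries and 112, 107 and 119 TPM in controls, a difference of 0.03 (95% interval -0.09 to 0.15). The treated values lay inside the control range. The remaining cytosolic enzymes overlapped between groups, with differences of 0.03 for AARS1 (alanine), 0.06 for HARS1 (histidine), -0.03 for both NARS1 (asparagine) and SARS1 (serine) and -0.07 for YARS1 (tyrosine). WARS1, the tryptophanyl enzyme, which is also induced by interferon in human cells, had a difference of 0.00 (95% interval -0.16 to 0.16). Its values were 104, 91.3 and 101 TPM in treated and 95, 93 and 108 TPM in control cells. Of 10 interferon response genes tested, 0 rose or fell, with a median of 0.0991. In 5 of the 10 the groups lay apart (4 higher and 1 lower), against 23.1% of all genes, and 3 had an unadjusted limma p under 0.05 with a higher mean, against 8.75%.

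Among mitochondrial members, 4 of 16 (25%) had treated values below all control values, against 11.8% of all genes. This difference in share was not tested, and no mitochondrial member passed over all genes. MARS2 (ENSCAFG00845027432), which charges methionine for the start and the body of mitochondrial proteins, had 10.9, 8.45 and 7.83 TPM in (R)-GNE-140 cells, against 11.4, 11 and 13.5 TPM in controls. Its means were 9.06 ± 1.62 TPM after the compound and 12.0 ± 1.33 TPM in controls (SD, n = 3 each), a difference of -24.3%, and the highest treated value came within a fraction of a TPM of the lowest control. The log2 difference was -0.37 (SE 0.12, 95% interval -0.65 to -0.09, limma adjusted p = 0.148). IARS2 (ENSCAFG00845028875), the isoleucyl enzyme, had 39.8, 38.1 and 39.5 TPM in treated and 44.2, 42.8 and 45.2 TPM in control cells. Libraries within each group were close, and the difference was -0.17 (95% interval -0.29 to -0.05, limma adjusted p = 0.134). CARS2 (ENSCAFG00845020736), for cysteine, had 9.11, 8.83 and 9.72 TPM in treated and 10.4, 10.9 and 11.7 TPM in control cells, a difference of -0.23 (limma adjusted p = 0.176). TARS2 (ENSCAFG00845017490), the threonyl enzyme, had 53.2, 46.2 and 49.6 TPM in treated and 55.8, 55.0 and 56.6 TPM in control cells. Its difference was -0.17 (limma adjusted p = 0.188), and the treated libraries were more spread than the controls. For these 4 enzymes the adjusted p over the alternative settings ran from 0.067 to 0.353 (MARS2), 0.068 to 0.302 (IARS2), 0.104 to 0.374 (CARS2) and 0.0955 to 0.358 (TARS2).

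The other 12 mitochondrial enzymes overlapped between groups. HARS2 (histidine) had 21.7, 22.5 and 22.3 TPM in treated and 20.1, 22 and 19.4 TPM in control cells, a difference of 0.11. HARS2 is the direct neighbour of HARS1 in the RefSeq table of UU_Cfam_GSD_1.0, and the enzymes are closely related. RARS2 (arginine) had 15.2, 17.6 and 16.4 TPM in treated and 16.6, 15 and 13.5 TPM in control cells, also a difference of 0.11. FARS2 (phenylalanine), a single-chain enzyme unlike its cytosolic counterpart, had 27.6, 26.7 and 25.1 TPM after the compound and 24.4, 25.0 and 26.6 TPM in controls. SARS2 had 8.44, 8.29 and 7.40 TPM in treated and 9.08, 8.95 and 7.92 TPM in control cells, a difference of -0.09. VARS2, the most abundant of the set, had 71.9, 65.7 and 70.2 TPM after the compound, against 73.5, 67.8 and 70.0 TPM in controls, a difference of -0.02. PARS2, the least abundant, had 3.38, 4.37 and 4.46 TPM in treated and 4.57, 4.35 and 4.19 TPM in control cells. The differences of the rest were -0.03 for AARS2, 0.01 for both EARS2 and LARS2, -0.08 for NARS2, -0.04 for WARS2 and 0.06 for YARS2.

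EARS2 and QARS1 take different routes to a charged tRNA. Mitochondria make glutaminyl-tRNA indirectly: EARS2 loads glutamate onto the glutamine tRNA, and the transamidase of QRSL1, GATB and GATC converts it. EARS2 (ENSCAFG00845001728) had 11.2, 8.48 and 10.7 TPM in treated and 9.92, 9.68 and 10.3 TPM in control cells, with the treated values on both sides of the controls. QRSL1 had 19.5, 20 and 20 TPM in treated and 19.9, 19.9 and 19.7 TPM in control cells, and its difference of -0.00 had an interval of -0.14 to 0.13. GATC, GATB and MTFMT, the last of which formylates the initiator methionyl-tRNA, had differences of -0.04, 0.08 and 0.13. None of these 4 partner genes passed.

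For 12 amino acids a single cytosolic and a single mitochondrial enzyme could be set side by side, and the cytosolic transcript was the more abundant in all 12. Threonine and phenylalanine have more than 1 cytosolic gene, and the other enzymes have no single counterpart among the members, so these were left out. The ratio of cytosolic to mitochondrial TPM in controls ran from 1.41 (isoleucine) to 18.5 (serine), with a median of 6.95. In (R)-GNE-140 libraries the isoleucine ratio was 1.35 to 1.47, against 1.41 to 1.42 in controls, and both enzymes had differences of similar size, -0.15 for IARS1 and -0.17 for IARS2. For cysteine the groups lay apart. Its ratio was 4.43 to 5.40 in treated and 3.62 to 3.83 in control libraries, with differences of 0.11 for CARS1 and -0.23 for CARS2. For valine the ratio was 2.48 in all 3 treated libraries and 2.51 to 2.70 in controls, although neither enzyme's own values lay apart between groups. The methionine ratio was 7 to 14.2 in treated and 6.93 to 8.86 in control libraries, and overlapped. In 5 of the 12 pairs both enzymes had a difference of the same sign. These ratios were not tested.

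**Figure D4:**
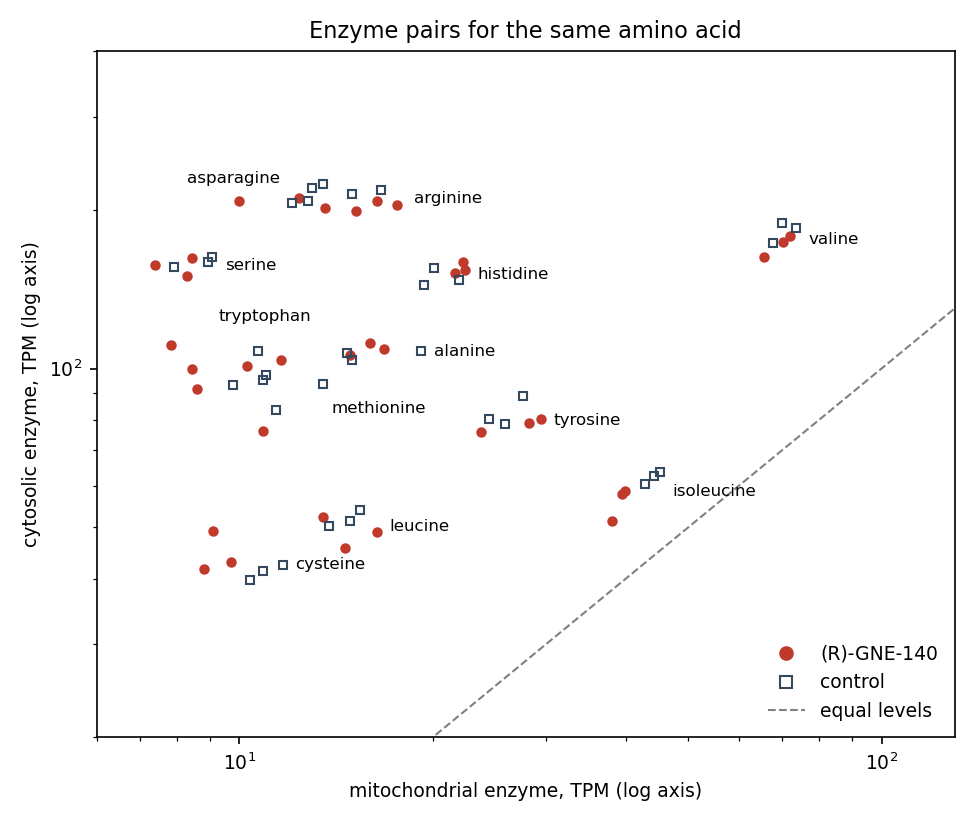
TPM of the cytosolic enzyme (vertical, log axis) against the mitochondrial enzyme (horizontal, log axis) for 12 amino acids, with (R)-GNE-140 libraries as filled circles, control libraries as open squares and a dashed line at equal levels. Each amino acid lies above the line, isoleucine nearest to it at a control ratio of 1.41 and serine farthest at 18.5.

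Genes that work beside the synthetases had few calls. The scaffold proteins of the complex with a single row, AIMP2 and EEF1E1, had 101 and 88.0 TPM in treated and 95.9 and 95.5 TPM in control cells, with differences of 0.07 and -0.12, and neither passed. Of 9 charging partners and editing genes tested, 0 rose or fell (median -0.00624), and the groups lay apart in 1 (11.1%, SEPSECS, lower). Among them XPOT, which exports tRNA from the nucleus, had a difference of 0.04, and DTD2, a proofreading deacylase, SEPSECS, which makes selenocysteinyl-tRNA, and PSTK, the kinase before it, had -0.24, -0.09 and 0.14. The 9 mitochondrial tRNA processing genes also had 0 calls, and the groups lay apart in 1 (11.1%, lower), against 23.1% of all genes. ELAC2, which trims the 3′ ends of tRNA, had 49.0, 47.5 and 49.6 TPM in treated and 57.9, 54.1 and 56.8 TPM in control cells. Its groups lay apart with a difference of -0.20 (limma adjusted p = 0.0774), while TRMU and MTO1, which modify mitochondrial tRNA, had 0.22 and 0.10.

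The lists of elongation factors, which also hold release and other translation factors, had 0 calls in 8 cytosolic and 8 mitochondrial genes. Groups lay apart in 1 cytosolic gene (12.5%, higher) and in 2 mitochondrial genes (25%, 1 higher and 1 lower), against 23.1% of all genes. EEF1A1, the cytosolic carrier of charged tRNA, was at 5724 TPM in treated and 5608 TPM in control cells (log2 difference 0.03, 95% interval -0.06 to 0.12), and EEF1B2 and EEF1D of its exchange factor had 0.09 and 0.07. The release factor GSPT1 also had 0.07, with treated values above all control values. TUFM, the mitochondrial counterpart of EEF1A1, had 231, 223 and 214 TPM in treated and 238, 236 and 249 TPM in control cells. These values lay apart with a difference of -0.11 (limma adjusted p = 0.251). Its exchange factor TSFM had a difference of 0.07. The release factor MTRF1L had one of 0.26 (limma adjusted p = 0.0873), with treated values above all control values.

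The 13 synthetases counted among ATF4 targets in human or mouse had 0 calls. Of all genes 3.03% were called, so a count of 0 among 13 lies near the background. Some other ATF4 factors and targets rose. For the 13 such synthetases (AARS1, CARS1, EPRS1, GARS1, IARS1, LARS1, MARS1, NARS1, SARS1, TARS1, VARS1, WARS1 and YARS1) the differences ran from -0.15 to 0.11, with a median of -0.0278. The upper ends of their 95% intervals reached at most 0.33. In 1 of the 13 (7.69%), IARS1, the groups lay apart and the unadjusted limma p was under 0.05. These shares were 23.1% and 17.9% over all genes. In the list of ATF4 factors and targets, 5 of 25 tested genes rose and 0 fell, beside 1.31% of all genes that rose, and the median was 0.095. DDIT3, the stress-induced transcription factor CHOP, had 48.9, 42.9 and 48.5 TPM in treated and 21.7, 27.5 and 16.6 TPM in control cells (log2 difference 1.08, 95% interval 0.75 to 1.41, limma adjusted p = 0.00916). SLC3A2, the shared chain of several amino acid transporters, had 82.5, 76.5 and 80.8 TPM in treated and 57.8, 52.3 and 61.6 TPM in control cells. It rose by 0.48 (limma adjusted p = 0.00992), with a 95% interval of 0.33 to 0.63. CHAC1, which degrades glutathione, SLC7A11, the cystine transporter, and NUPR1, a stress-induced cofactor, rose by 0.47, 0.45 and 0.40. These 3 calls held in 3, 0 and 1 of the 6 leave-one-out fits, against 6 for DDIT3 and 5 for SLC3A2. All 3 were also lost with no filter on low values (limma adjusted p = 0.0516 for CHAC1, 0.101 for SLC7A11 and 0.0812 for NUPR1). CHAC1 (0.0565) and SLC7A11 (0.0736) were lost with the replicate block, and NUPR1 (0.0894) and SLC7A11 (0.0512) with no variance trend. The difference between the synthetases and these genes was not itself tested, and the list had been seen to hold risen genes in earlier work on these data.

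The other 20 tested genes of that list did not pass. In 12 of the 25 the groups lay apart (48%, 10 higher and 2 lower), against 23.1% of all genes, and 9 (36%) had an unadjusted limma p under 0.05, against 17.9%. SLC38A2, SESN2 and TRIB3, an amino acid transporter, a stress-induced regulator of mTORC1 and a pseudokinase, had treated values above all control values, with differences of 0.13, 0.40 and 0.15. VLDLR and PSPH did too, with 0.29 and 0.12. The 2 lower genes were SLC7A1 and SHMT2, with differences of -0.14 and -0.10. ATF4 itself had 601, 591 and 566 TPM in treated and 540, 545 and 566 TPM in control cells (log2 difference 0.09, 95% interval -0.01 to 0.19), a transcript level that does not report its translation. ASNS, asparagine synthetase, which makes the amino acid but does not charge a tRNA, had a difference of 0.07 (95% interval -0.05 to 0.18), and PSAT1 of serine synthesis one of 0.06. Of 10 genes tested around GCN2, eIF2 and its exchange factor, which do not include the gene of GCN2 itself, 1 rose. That gene was PPP1R15A (GADD34), which directs the removal of phosphate from eIF2 and had 29.5, 35.1 and 28.6 TPM in treated, against 20.4, 19.8 and 25.1 TPM in control cells (log2 difference 0.50, limma adjusted p = 0.0404). Its call held in 1 of the 6 leave-one-out fits. It was also lost under median-of-ratios scaling (limma adjusted p = 0.0521), quantile normalization (0.057), no filter (0.106), no variance trend (0.0928) and the replicate block (0.0963). IMPACT, an inhibitor of GCN2, had a difference of 0.15, and EIF2B1, a subunit of the exchange factor, one of 0.09.

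**Figure D5:**
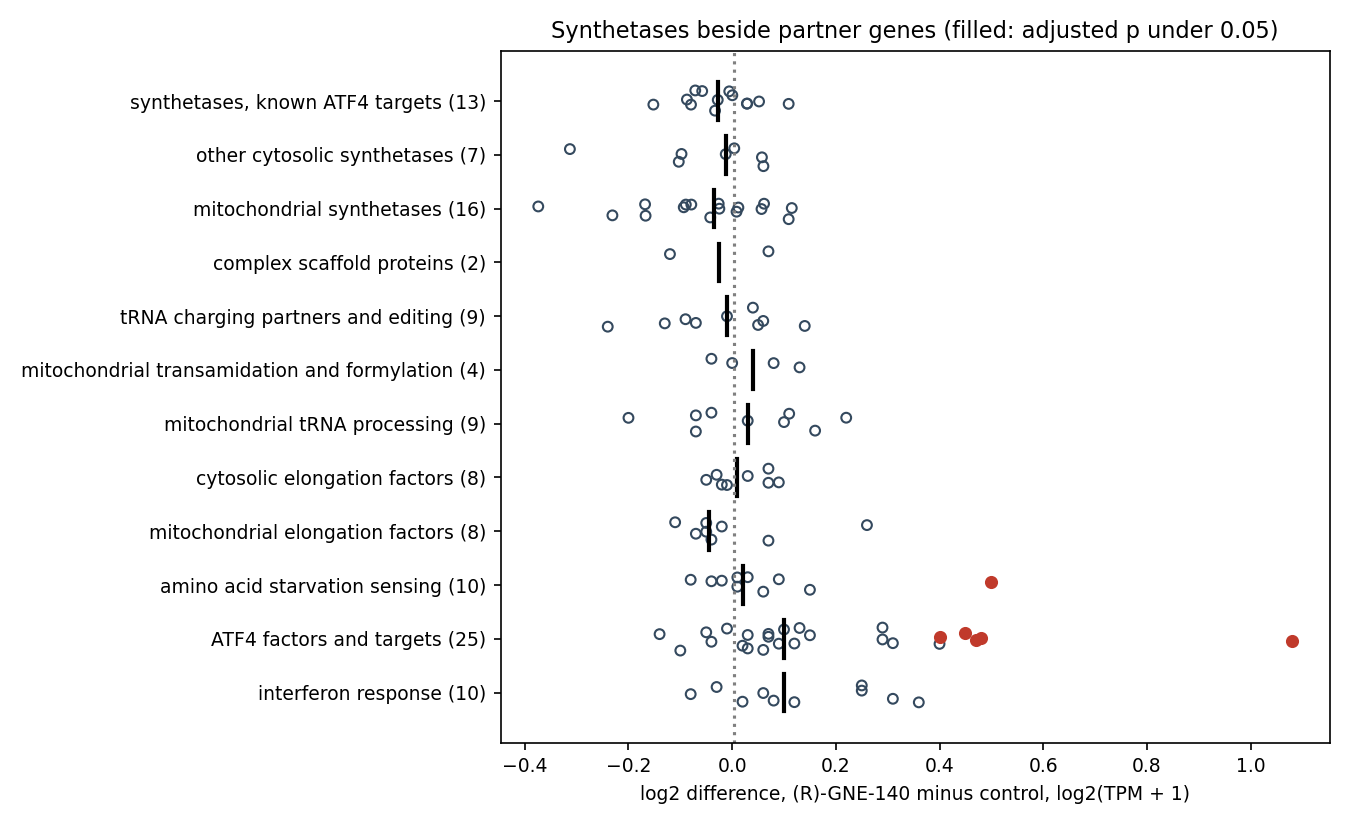
Log2 difference, (R)-GNE-140 minus control, on log2(TPM + 1) for the synthetases in 3 rows at the top and for partner gene lists below (number of genes tested in brackets); filled points have a limma adjusted p under 0.05, black bars are list medians and the dotted line is the median of all genes tested. Synthetases have no filled point, and the 6 filled points are 5 ATF4 factors and targets and PPP1R15A.

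The medians and the count of members with an unadjusted p under 0.05 changed with single libraries left out. Of the 36 members, 16 (44.4%) had their lowest value of all 6 libraries in (R)-GNE-140 replicate 2, where 29.9% of all genes tested had theirs, and 14 had their highest in control replicate 3 (38.9%, against 21.5% of all genes). Without (R)-GNE-140 replicate 2 the median difference was 0.00896 for cytosolic and 0.0147 for mitochondrial members, both with the opposite sign, while the median of all genes moved to 0.026. The members with an unadjusted p under 0.05 then numbered 3, all lower, and 2 without control replicate 3, also lower. Without (R)-GNE-140 replicate 1 such members numbered 7, of which 6 were lower. Without control replicate 3 the cytosolic median was 0.00121 and the mitochondrial one -0.0448. No fit with a library left out called any member.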

How the data were processed

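Per the labels, polyA RNA-seq libraries of HU-HSA-2 were made with a directional kit. The authors deposited TPM values rounded to 2 decimals, and per the submitters' processing notes used STAR, RSEM and edgeR 3.42.0, with settings and genome build not given in the sources used here. Groups came from sample titles. The members and gene lists were chosen with earlier results of these data known. Rows averaging at least 1 TPM entered limma 3.58.1 (R 4.3.3) on log2(TPM + 1), with a term for group alone, a variance trend, 2-sided tests and Benjamini-Hochberg adjustment over all 10874 genes. The steps were tested on simulated data with the spread of these libraries. At an adjusted limma p under 0.05 they recovered 25.4% of log2 changes of 0.3, 60.4% of 0.5 and 90.5% of 1.0. These rates are averages over genes drawn from all those tested, whose median standard error was 0.0801, beside 0.063 for the members. No change between 0 and 0.3 was simulated, and the median absolute difference of the members was 0.0609. A change of the size seen in these members could be missed, at a rate that the simulation does not give. The labels do not state separate cultures for the replicates. The p-values therefore reflect the spread between these samples alone, which can be technical. Intervals are 95% limma intervals. Symbols shared by several rows were left out of the lists. An Ensembl identifier was found for 35 members in the table's own list, and all 36 symbols are in the RefSeq table. Figures used matplotlib 3.10.9.

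Members were given in full by rank of p (8 per compartment) and by level (3 highest and 2 lowest), with TARS1, TARS3, GARS1, KARS1, QARS1, EARS2 and EPRS1 always. From each list, genes past an adjusted p of 0.05 and up to 3 by smallest p could be named. The values per library of WARS1 and MARS1 are outside that rule and were chosen after their values were seen. The same holds for QRSL1, XPOT, EEF1A1, SLC38A2, SESN2, TRIB3, VLDLR, PSPH, SLC7A1, SHMT2, ATF4, ASNS and PSAT1. The markers listed at 0 (CD3E, COL3A1, RGS5 and CDH1) and VWF are also outside that rule. Alternatives covered the pseudocount (0.1 and 5), the filter, 3 scalings, the variance trend, a replicate block and leave-one-out fits.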

Additional observations from a re-analysis of the deposited data

How the results depend on the processing

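The count of 0 called synthetases held in all 15 alternative settings, with a smallest adjusted p of 0.057 for any member. The count over all genes (329) was 168 with no filter on low values, 159 with no variance trend, 163 with the replicate block and 74 to 185 with a library left out. The replicate numbers are not said to mark a shared culture or day, so they were not taken as pairs. Same-numbered libraries did not deviate together (r = 0.0358, 0.00927 and -0.0977). Only GNE140 replicate 1 correlated best with its own number. The medians and sums of both compartments moved by less than 1 SD (pooled over both groups, log2 scale) in every setting run. Signs still turned, for the cytosolic median under quantile normalization (0.00442), for the cytosolic median and log2 ratio of sums without control replicate 3 (0.00121 and 0.00556) and without GNE140 replicate 2 (0.00896 and 0.00111), and for the mitochondrial median without GNE140 replicate 2 (0.0147). The mitochondrial log2 ratio of sums (-0.0563) ran from -0.0896 without GNE140 replicate 1 to -0.0268 without GNE140 replicate 2. Of 539 member values under alternatives, 36 had the opposite sign to the reported one, in 15 members whose reported differences were at most 0.0894 in size. The cause was not tested. PARS2 gave no value with a mean TPM of at least 5. Under quantile normalization they were EPRS1 0.0177, QARS1 0.00366, SARS1 0.00517, EARS2 -0.0101 and LARS2 -0.00404. EPRS1 was at 0.006 with the 20 most abundant genes removed and WARS1 at -0.000313 under median-of-ratios scaling. With a library left out, the ranges were -0.0313 to 0.0401 (EPRS1), -0.014 to 0.0235 (FARSB), -0.00759 to 0.0693 (GARS1), -0.0629 to 0.205 (MARS1), -0.071 to 0.0171 (QARS1), -0.0549 to 0.00438 (SARS1) and -0.0405 to 0.0666 (WARS1). For mitochondrial members they were -0.0921 to 0.0912 (AARS2), -0.0573 to 0.122 (EARS2), -0.0619 to 0.0681 (LARS2), -0.166 to 0.0378 (NARS2), -0.146 to 0.0126 (PARS2), -0.0516 to 0.0123 (VARS2), -0.131 to 0.0618 (WARS2) and -0.00322 to 0.147 (YARS2). Depth is unknown.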
